A study of Mus musculus with 6 samples.

Results

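The mitochondrial ribosomal protein genes were examined in the hippocampus of mice after bilateral carotid artery stenosis (BCAS), a model of chronic cerebral hypoperfusion. They were taken by symbol, as Mrpl or Mrps followed by a number and an optional letter, with pseudogenes left out. The rule gave 78 of the 54752 genes in the count tables, 49 with an Mrpl and 29 with an Mrps symbol, on 17 chromosomes. Messenger RNA was measured by RNA-seq in the right hippocampus, taken whole, of wild-type mice. Their strain is given as C57BL/6 in the labels and as C57BL/6 J in the methods. They were aged 14 weeks according to the labels and male according to the methods. There were 3 mice in each group, with 1 library per mouse, and tissue was collected 3 weeks after the operation. In BCAS mice a microcoil had been placed on both common carotid arteries, narrower on the right side, and sham mice went through surgery without coils. Nothing in the labels pools animals, so the spread between libraries of a group is taken as the spread between mice.

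The mitochondrial ribosome lies in the mitochondrial matrix and makes only the proteins that the mitochondrial genome encodes, which are core subunits of the respiratory chain and of ATP synthase. Its ribosomal RNAs come from the mitochondrial genome, whereas all of its proteins are encoded in the nucleus, made on cytosolic ribosomes and imported. The small subunit reads the messenger RNA and the large subunit joins the amino acids. Some of the proteins descend from bacterial ribosomal proteins and others are found only in mitochondrial ribosomes. Neurons depend strongly on respiration, and so on this machinery.

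The genes are scattered over the genome and many share a start region with a neighbour. A start of another gene on the opposite strand lay within 1000 bases of the start of 36 of the 77 genes that could be tested, or 46.75%, against 23.68% of all tested genes. Mrpl46 and Mrps11 form such a pair with each other, with starts 412 bases apart. Promoter windows from RefSeq (build GRCm38.p6, 250 bases before to 50 bases after the start) were found for 69 of the 78 genes. Some genes had several windows, 75 for the 69 genes. Short letter strings were searched on both strands in the windows of the 68 of these genes that were tested. A gene was counted if any of its windows held the string. The string CCGGAAG, a core of ETS and GABP sites, was present in 36.76% of these genes. The share was 16.92% of the 12920 tested genes with a window and 9.928% of all 27025 genes with a window. The string AAGATGGC, a YY1 core, was present in 17.65%, against 4.443% and 3.19%. The string GCATGCGC from the NRF1 motif was present in 11.76%, against 5.186% and 3.049%. GGGCGG, the SP1 box, was present in 34 of the 68 genes, against 63.85% and 38.2%, and CCAAT in 38.24%, against 42.03% and 41.06%. CCGGAAG and AAGATGGC can overlap in a window, since the end of the first is the start of the second. The 5 strings were picked after other strings had been counted, so the shares are a description without a test. GABP, NRF1 and YY1 are transcription factors known for acting on nuclear genes of mitochondria, and a match in letters is not evidence that a factor binds there.

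The windows of the 4 genes with the smallest P values in the comparison of BCAS with sham are shown because those genes carry the firmest expression results. That of Mrps18a is shown for its letters, since it holds an ETS string and a YY1 string, and the call of this gene passed in 10 of 17 other settings. The windows are those of Mrps33 (chr6:39810887-39811186, minus strand), Mrpl3 (chr9:105053018-105053317, plus strand), Mrps26 (chr2:130563507-130563806, plus strand), Mrps9 (chr1:42850983-42851282, plus strand) and Mrps18a (chr17:46110754-46111053, plus strand). Each is written 5′ to 3′ on the strand of the gene, and capitals mark matches to the ETS, NRF1 and YY1 strings on either strand.
Mrps33: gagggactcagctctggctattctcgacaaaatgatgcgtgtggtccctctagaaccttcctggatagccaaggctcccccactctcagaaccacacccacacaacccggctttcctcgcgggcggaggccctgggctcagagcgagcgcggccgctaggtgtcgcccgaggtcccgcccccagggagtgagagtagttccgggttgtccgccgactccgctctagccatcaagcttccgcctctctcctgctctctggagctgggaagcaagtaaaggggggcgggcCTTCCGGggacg
Mrpl3: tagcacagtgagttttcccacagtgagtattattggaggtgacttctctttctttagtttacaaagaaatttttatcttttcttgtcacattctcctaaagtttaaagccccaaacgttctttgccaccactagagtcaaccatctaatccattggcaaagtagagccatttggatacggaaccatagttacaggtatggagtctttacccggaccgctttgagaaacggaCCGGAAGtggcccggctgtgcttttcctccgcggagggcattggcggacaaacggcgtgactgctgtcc
Mrps26: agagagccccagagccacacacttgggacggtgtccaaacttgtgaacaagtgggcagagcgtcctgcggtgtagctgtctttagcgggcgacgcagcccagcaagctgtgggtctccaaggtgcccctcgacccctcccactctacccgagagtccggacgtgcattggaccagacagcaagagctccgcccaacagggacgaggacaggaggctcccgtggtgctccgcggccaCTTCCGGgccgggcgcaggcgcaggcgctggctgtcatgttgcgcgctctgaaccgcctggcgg
Mrps9: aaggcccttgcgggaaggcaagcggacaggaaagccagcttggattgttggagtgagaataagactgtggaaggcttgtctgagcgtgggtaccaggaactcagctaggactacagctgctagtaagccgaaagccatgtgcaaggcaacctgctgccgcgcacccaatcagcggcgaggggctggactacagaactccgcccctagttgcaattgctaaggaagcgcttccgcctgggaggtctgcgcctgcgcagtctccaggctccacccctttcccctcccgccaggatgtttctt
Mrps18a: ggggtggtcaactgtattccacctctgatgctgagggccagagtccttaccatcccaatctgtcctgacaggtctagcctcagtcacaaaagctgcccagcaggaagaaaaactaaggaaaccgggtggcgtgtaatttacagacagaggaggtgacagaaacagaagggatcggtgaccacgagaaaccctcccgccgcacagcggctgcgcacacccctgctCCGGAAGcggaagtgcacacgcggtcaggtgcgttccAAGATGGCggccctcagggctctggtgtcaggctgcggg
The ETS string begins 19 bases before the RefSeq start in Mrpl3, 14 bases before it in Mrps26 and 26 bases before it in Mrps18a, and in Mrps33 it begins at base 39 of the transcript. In Mrps18a the YY1 string begins at base 12. The window of Mrps9 holds none of the 3 strings. Among the 11 windows available for the 12 genes that were lower after BCAS, 7 held the ETS string, 7 held CCAAT, 6 the SP1 box, 1 the YY1 string and 0 the NRF1 string.

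The libraries held 29652456 to 35607098 counts, with the mates of a pair as separate counts. The deposited values are raw counts per gene, turned here into CPM with TMM-scaled library sizes, a unit that makes libraries of different depth comparable. A count of 3, taken as the limit of detection, equals 0.0874 to 0.0994 CPM. The common biological coefficient of variation was 0.161. Markers of the hippocampus were present in every library. The summed level of 10 neuron markers was 6995 to 7551 CPM in sham mice and 4052 to 5645 CPM in BCAS mice, and 8 of the 10 genes were lower after BCAS (5 without sham mouse 1, sham mouse 2 or BCAS mouse 1). The summed level of 5 markers of CA1 was 645 to 811 CPM in sham mice and 357 to 527 CPM in BCAS mice, and that of 4 dentate markers was 332 to 401 and 227 to 342 CPM. All 10 microglia markers were higher after BCAS, with sums of 376 to 394 CPM in sham mice and 2581 to 4259 CPM in BCAS mice. Of the 9 astrocyte markers 8 were higher, with sums of 4510 to 4791 CPM in sham mice and 9603 to 10141 CPM in BCAS mice. Of the 9 oligodendrocyte markers 0 passed in edgeR, where 1 had an unadjusted P under 0.05, 1 was higher without BCAS mouse 2, and 1 passed in DESeq2, and 4 of 6 endothelial markers were higher. The 4 choroid plexus markers summed to 69.5 to 4064 CPM in sham mice and 39.7 to 5893 CPM in BCAS mice and followed no group. No listed marker was at 0 in all libraries. In bulk tissue, fewer cells of a type and less RNA per cell cannot be told apart.

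Mitochondrial ribosomal protein genes were expressed at moderate levels. On the FPKM scale, which divides CPM by exon length in kilobases, the median gene had 10.4 FPKM over the 6 mice, at the 74.06 percentile of all tested genes, with quartiles of 5.84 and 16.6 FPKM. All 77 tested genes exceeded 1 FPKM and 40 exceeded 10 FPKM. The highest level was that of Mrpl41, a protein specific to the mitochondrial large subunit, with 40.5 ± 4.0 FPKM (SD, n = 3) in sham mice and 33.7 FPKM in BCAS mice. Mrpl34 and Mrpl43 followed, with means over all mice of 28.2 and 27.9 FPKM. At the low end, Mrpl33 had a mean of 1.40 FPKM, Mrps35 of 2.10 FPKM and Mrps30 of 2.53 FPKM, so that the means spanned 26.5-fold. The exon lengths behind these levels join all annotated isoforms and run from 607 bases in Mrpl34 to 8631 bases in Mrps35, so the level of a gene with a long annotated but unused exon is understated. The order of the genes was nearly the same in both groups (Spearman rho of 0.987 across the 77 genes, which are not independent and share the libraries).

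**Figure D1:**
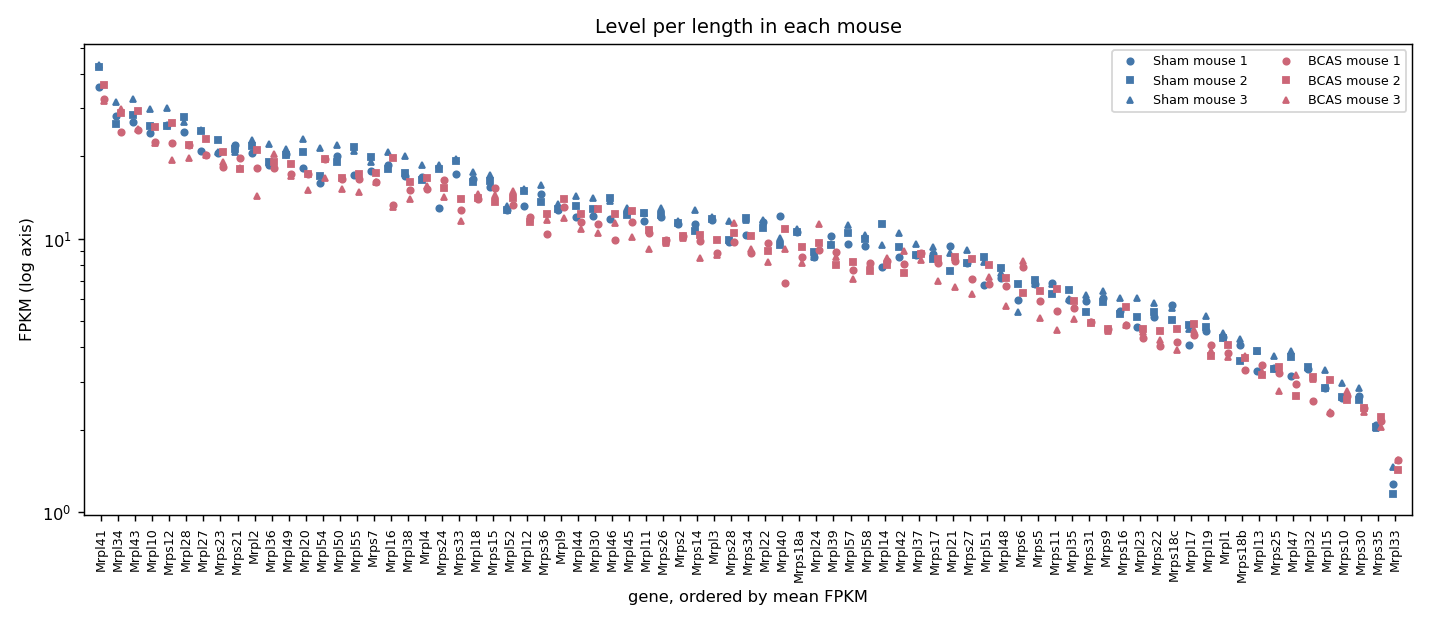
Level of each tested mitochondrial ribosomal protein gene in each mouse, in FPKM on a log axis, with genes ordered by their mean over the 6 mice (blue sham, red BCAS, with a symbol per mouse number). Levels run from a mean of 37.1 FPKM for Mrpl41 down to 1.40 FPKM for Mrpl33, and the red symbols lie slightly below the blue ones for most genes.

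Mrpl53 was the only gene of the family with no counts. All 6 libraries had 0 counts for it, a limit of 0.0874 to 0.0994 CPM per library that holds only for reads that could be counted and covers counting error only. By the exon coordinates of the tables, 88.0% of its exon length is shared with Ccdc142os on the opposite strand or with Gm42688 on its own strand, and reads that fall on exons of 2 genes were not counted. Its level is therefore unknown. In all, 32 of the 78 genes share some exon sequence with another gene. For 3 of them, Mrpl53, Mrps34 and Mrps25, the shared part exceeds 50% of the exon length.

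After BCAS most genes of the family had fitted levels slightly below those of sham mice. Of the 77 tested genes, 12 were lower in BCAS mice at an adjusted P under 0.05 (edgeR quasi-likelihood test with Benjamini-Hochberg adjustment over all 18617 tested genes), and 0 were higher by edgeR or DESeq2. The 12 genes are 15.6% of those tested, close to the 13.2% of all tested genes that were lower, so the number of calls alone does not set the family apart. Of all tested genes, 18% were higher. At an unadjusted P under 0.05, 27 of the 77 genes were lower and 0 higher. Of the 18617 tested genes, 3620 (19.4%) were lower and 4267 (22.9%) higher, so here the family had the larger share of lower genes. No gene of the family passed the study's second threshold, an absolute log2 fold change above 1, which 0.999% of all tested genes passed downwards and 8.47% upwards.

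The direction was shared more widely than the calls. The log2 fold change was below 0 in 69 of the 77 genes, or 89.6%, against 48.2% of all tested genes, and in 64 to 72 genes in the other settings. Its median was -0.21, with quartiles of -0.29 and -0.14, beside a median of 0.018 and quartiles of -0.24 and 0.40 over all tested genes. For 76 of the 77 genes the absolute value was under 0.5. In 35 of the 77 genes all 3 BCAS mice lay below all 3 sham mice, against 4229 of the 18617 tested genes (22.7%). In 2 genes, Mrpl24 and Mrpl52, all lay above, against 25.3% of all tested genes. The genes were measured in the same 6 mice, so their directions are not independent of each other.

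The number of calls depended on single mice, in the family and over all tested genes alike. Leaving out sham mouse 1, 2 or 3 gave 8, 6 and 5 calls. Leaving out BCAS mouse 1 or BCAS mouse 3 gave 7 each, and leaving out BCAS mouse 2 gave 23. The share of all tested genes called lower was 7.61%, 7.39% and 6.58% without sham mouse 1, 2 or 3, 10% without BCAS mouse 1, 16.1% without BCAS mouse 2 and 9.26% without BCAS mouse 3. In the family these calls were 6.49% without sham mouse 3 and 29.9% without BCAS mouse 2. Scaling by library totals gave 6 calls, or 7.79%, against 9.61% of all tested genes. The median log2 fold change lay between -0.24 and -0.13 in these and in all other settings tried.

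**Figure D2:**
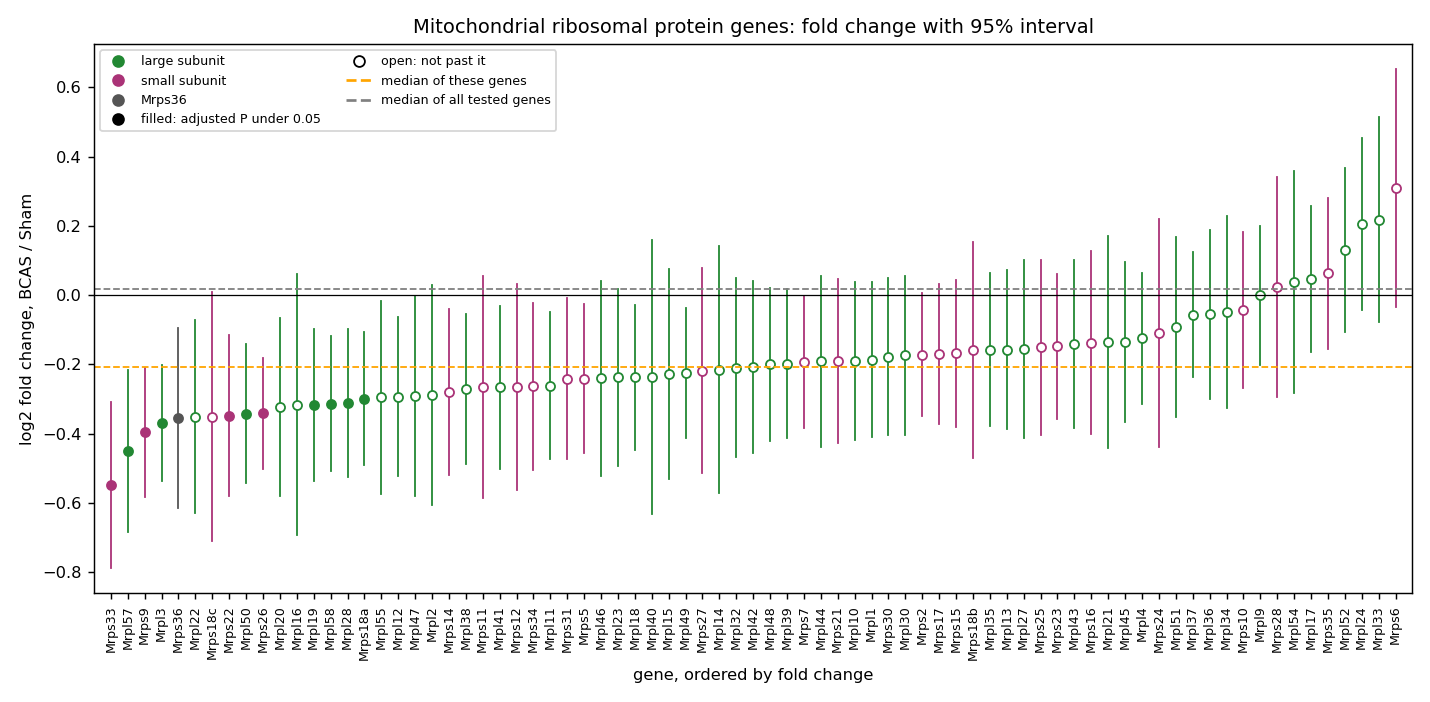
Log2 fold change of each tested mitochondrial ribosomal protein gene (BCAS over sham) with its 95% interval, ordered by size. Green points are large subunit genes, purple points small subunit genes and the grey point is Mrps36, filled where the adjusted P was under 0.05, and the orange and grey dashed lines give the medians of -0.21 for the family and 0.018 for all tested genes.

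In the small subunit, 4 of 26 genes were lower after BCAS, or 15.4%, near the 13.2% of all tested genes. Called genes were picked by P value in these same mice, so a lack of overlap in them describes the call and adds no support. Mrps33, a protein found only in mitochondrial ribosomes, had 28.7, 32.1 and 32.6 CPM in sham mice 1 to 3 and 21.2, 23.3 and 19.3 CPM in BCAS mice 1 to 3. The groups did not overlap, and its log2 fold change of -0.55 (SE 0.11, adjusted P = 0.00516) was the lowest of the family. Mrps9, the homolog of bacterial protein S9 near the decoding site, had 34.9, 33.8 and 37.0 CPM in sham mice and 27.0, 26.8 and 26.5 CPM in BCAS mice. The BCAS mice were nearly equal in it, with an SD of 0.229 CPM around a mean of 26.8 CPM, and the log2 fold change was -0.40 (SE 0.08, adjusted P = 0.00735). Mrps26, another protein specific to mitochondria, had 52.3, 53.3 and 56.2 CPM in sham mice and 42.9, 42.8 and 42.0 CPM in BCAS mice. All BCAS mice were well below all sham mice, with a log2 fold change of -0.34 (SE 0.07, adjusted P = 0.00706). Mrps22, a mitochondria-specific protein that is altered in an inherited disorder of mitochondrial translation, had 20.7, 21.6 and 23.2 CPM in sham mice and 16.1, 18.3 and 17.01 CPM in BCAS mice, again without overlap. Its log2 fold change was -0.35 (SE 0.10, adjusted P = 0.0314). The calls of Mrps33, Mrps9 and Mrps26 stood in all 17 other settings. That of Mrps22 stood in 8, and without 1 mouse its adjusted P was 0.0562 to 0.102, except without BCAS mouse 2, where it passed.

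In the large subunit, 7 of 50 tested genes were lower, or 14.0%, again near the share of all tested genes. Mrpl3, the homolog of bacterial L3 near the site where peptide bonds form, had 77.7, 78.4 and 80.0 CPM in sham mice and 59.0, 65.8 and 57.9 CPM in BCAS mice. The sham mice differed little, with an SD of 1.19 CPM, and the log2 fold change was -0.37 (SE 0.07, adjusted P = 0.00611). Mrpl57, a small protein specific to mitochondria, had 28.2, 31.1 and 33.3 CPM in sham mice and 22.6, 24.2 and 20.98 CPM in BCAS mice. It fell by 0.45 on the log2 scale (SE 0.10, adjusted P = 0.0112), the second largest fall of the family. Mrpl58, which derives from a peptide release factor and frees stalled peptides, had 31.3, 33.1 and 34.4 CPM in sham mice and 27.1, 25.4 and 27.0 CPM in BCAS mice. Its log2 fold change was -0.31 (SE 0.09, adjusted P = 0.0241), and every BCAS mouse was below every sham mouse. Mrpl50 had 42.6, 40.4 and 46.8 CPM in sham mice and 34.9, 35.3 and 32.1 CPM in BCAS mice, without overlap (log2 fold change -0.34, SE 0.09, adjusted P = 0.0186).

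Mrpl28, Mrpl19 and Mrps18a complete the large subunit genes that were lower. Mrpl28, the homolog of bacterial L28, had 31.3, 35.6 and 34.0 CPM in sham mice and 28.0, 28.2 and 25.1 CPM in BCAS mice (log2 fold change -0.31, SE 0.09, adjusted P = 0.0342). Mrpl19, the homolog of bacterial L19, had 24.9, 25.9 and 28.4 CPM in sham mice and 22.2, 20.3 and 21.1 CPM in BCAS mice (log2 fold change -0.32, SE 0.10, adjusted P = 0.0362). The groups did not overlap in either gene, but 36.0% of the exon length of Mrpl19 is shared with Gcfc2 on the opposite strand, where reads were not counted. The calls of Mrpl3 and Mrpl57 stood in all 17 other settings. Mrpl50 lost its call without sham mouse 1 (adjusted P = 0.0551), without sham mouse 3 (0.0763) and with the replicate block (0.0580), and passed in 14 of 17 other settings. Mrpl58 lost it without sham mouse 2 (0.0768), without sham mouse 3 (0.0842), with library totals (0.0727) and with the replicate block (0.0671), and passed in 13. Mrpl28 lost it without sham mouse 2 (0.124), sham mouse 3 (0.0953), BCAS mouse 1 (0.0535) or BCAS mouse 3 (0.087), and Mrpl19 lost it without any 1 mouse (0.0517 to 0.119). In all, Mrpl28 passed in 10 of the 17 and Mrpl19 in 7.

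**Figure D3:**
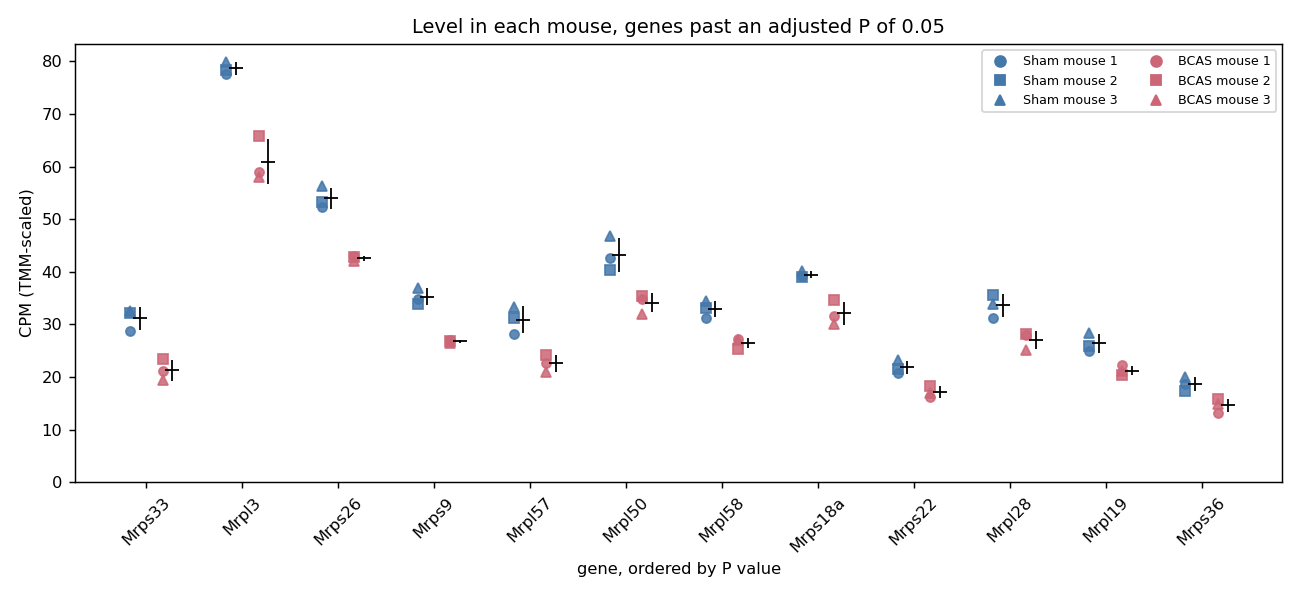
CPM of the 12 mitochondrial ribosomal protein genes with an adjusted P under 0.05, in each of the 3 sham (blue) and 3 BCAS (red) mice, ordered by P value, with black bars for the mean and SD of each group. In all 12 genes every BCAS mouse lies below every sham mouse, as in 22.7% of all tested genes. The 12 were picked by P value in these same mice, so the separation adds no support. The falls in the fitted level were 18.7% to 31.6%.

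Mrps18a, Mrps18b and Mrps18c are homologs of bacterial S18. Mrps18a is named for the small subunit but its protein lies in the large one. It had 39.2, 39.0 and 40.2 CPM in sham mice and 31.6, 34.5 and 30.1 CPM in BCAS mice. Its log2 fold change of -0.30 (SE 0.08, adjusted P = 0.0263) lost the call without any 1 mouse (0.0652 to 0.0847), except without BCAS mouse 2. Mrps18c had 6.13, 5.41 and 6.00 CPM in sham mice and 4.49, 5.03 and 4.23 CPM in BCAS mice, with a log2 fold change of -0.35 that did not pass (adjusted P = 0.125). Its groups did not overlap. Mrps18b had 8.52, 7.48 and 8.94 CPM in sham mice and 6.92, 7.65 and 7.78 CPM in BCAS mice, and the groups overlapped (log2 fold change -0.16, adjusted P = 0.421). Its log2 fold change was -0.23 without sham mouse 2 and -0.11 without sham mouse 3. Of these genes Mrps18b shares 30.5% of its exon length with another annotated gene and Mrps18c 23.2%. Whether the paralogs differ from each other was not tested.

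Mrps36 carries a ribosomal symbol, but its protein is a subunit of the 2-oxoglutarate dehydrogenase complex of the citric acid cycle. It had 18.6, 17.4 and 20.01 CPM in sham mice and 13.2, 15.7 and 14.9 CPM in BCAS mice. The log2 fold change was -0.35 (SE 0.11, adjusted P = 0.0437), without overlap between the groups, and it passed in 8 of 17 other settings. Without any 1 mouse the adjusted P was 0.0685 to 0.138, except without BCAS mouse 2. Without this gene the ribosomal proteins proper numbered 76 tested, of which 11 were lower, and their median log2 fold change was -0.20.

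The 3 genes of highest level and the 3 of lowest level per length gave no call. Mrpl41 had 31.8, 37.8 and 38.3 CPM in sham mice and 28.9, 32.5 and 28.4 CPM in BCAS mice, with a log2 fold change of -0.27 (adjusted P = 0.0831). The groups overlapped, since BCAS mouse 2 exceeded sham mouse 1, and without BCAS mouse 2 the gene passed (adjusted P = 0.0435). The log2 fold change of Mrpl43 was -0.14 (adjusted P = 0.354) and that of Mrpl34 was -0.05 (adjusted P = 0.793). For Mrpl43 it was -0.061 without sham mouse 3 and -0.23 without BCAS mouse 2. Among the genes of lowest level, Mrps30, another protein of the large subunit under a small subunit name, had -0.18 (adjusted P = 0.211), Mrps35 had 0.06 (adjusted P = 0.656) and Mrpl33 had 0.22 (adjusted P = 0.238). The value of Mrps35 was 0.027 without BCAS mouse 2 and 0.091 without BCAS mouse 3. The groups of Mrps30 did not overlap, and those of Mrps35 and Mrpl33 did.

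A value above 0 was found in 8 genes, and none of the 8 passed. The largest was that of Mrps6, which was singled out after its values were seen together with Mrpl24, Mrpl52 and Mrpl9. Mrps6 had 9.11, 10.5 and 8.27 CPM in sham mice and 12.1, 9.71 and 12.7 CPM in BCAS mice. The groups overlapped, and the log2 fold change was 0.31 (adjusted P = 0.154). Part of its exon sequence is shared with Slc5a3 on the same strand, a transporter gene whose own log2 fold change was 0.31 (adjusted P = 0.128). Mrpl24 had 19.3, 20.1 and 19.3 CPM in sham mice and 20.5, 21.8 and 25.4 CPM in BCAS mice (log2 fold change 0.20, adjusted P = 0.189). Mrpl52 had 14.2, 14.1 and 14.7 CPM in sham mice and 14.8, 15.7 and 16.6 CPM in BCAS mice (log2 fold change 0.13, adjusted P = 0.378). In both genes the groups did not overlap, but the gap was narrow. Over the 17 other settings the log2 fold change ran from 0.11 to 0.28 for Mrpl24 and from 0.083 to 0.21 for Mrpl52. Mrpl9 had nearly the same mean in both groups, 35.08 CPM in sham mice and 35.08 CPM in BCAS mice, and the 95% interval of its log2 fold change ran from -0.20 to 0.20.

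The median was below 0 in both subunits and in each structural group. The median log2 fold change was -0.21 in the 50 large subunit genes and -0.19 in the 26 small subunit genes, with 45 and 23 genes below 0. Without BCAS mouse 2 the calls rose to 14 and 8, in a setting where 16.1% of all tested genes were lower. Without sham mouse 3 they were 2 and 3, where 6.58% of all tested genes were lower. Whether the subunits differ was not tested. The 3 genes of the stalk, where translation factors dock, had a median of -0.26, the 6 genes of the central protuberance -0.24 and the 6 genes around the exit of the peptide tunnel -0.19. Around the exit 4 genes lay below 0 and 2 above, among them Mrpl24. With TMM scaling of all 6 libraries 0 genes of each of the 3 groups passed in edgeR, and 2 in each had an unadjusted P under 0.05. With RLE normalization and with the length offset, 2 genes of the stalk, 1 of the central protuberance and 1 around the exit were called lower. Without BCAS mouse 2 the calls were 1 in the stalk and 2 in the central protuberance, and DESeq2 called 1 gene in each of these groups lower.

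The mean level of the 77 genes gave the same order of mice in the large and small subunit. On a log2 CPM scale it was 4.56, 4.62 and 4.70 in sham mice 1 to 3 and 4.42, 4.51 and 4.38 in BCAS mice 1 to 3. The difference of the group means was -0.19, against an SD of 0.07 in sham mice and 0.06 in BCAS mice. Sham mouse 3 was the highest of the 6 for 52 of the 77 genes and BCAS mouse 3 the lowest for 39. As a share of all counts, the family took 0.200%, 0.206% and 0.216% in sham mice and 0.187%, 0.196% and 0.186% in BCAS mice. The 10 neuron markers ranked the 6 mice in the same way, with mean log2 CPM of 8.76, 8.80 and 8.82 in sham mice and 8.25, 8.39 and 8.05 in BCAS mice. Their median log2 fold change was -0.59. Other neuronal lists ranked the mice differently. By mean log2 CPM of the 4 dentate markers, sham mouse 3 was the lowest sham mouse (6.01, against 6.37 and 6.46). BCAS mouse 2 was the lowest of all in them (5.21). For the 5 CA1 markers the lowest sham mouse was number 2 (6.69), while the BCAS mice kept the order. The order was not particular to neuron markers, since the 38 complex I genes gave it too (5.33, 5.47 and 5.59 for sham, 5.21, 5.25 and 5.08 for BCAS). BCAS mouse 3 was lowest in the ribosomal family and in the mean of the 10 neuron markers. It also had the highest microglia markers (a mean log2 CPM of 8.18, against 7.44 and 7.53 in the other BCAS mice). The part of these cell type markers in the lower level of the family was not tested.

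**Figure D4:**
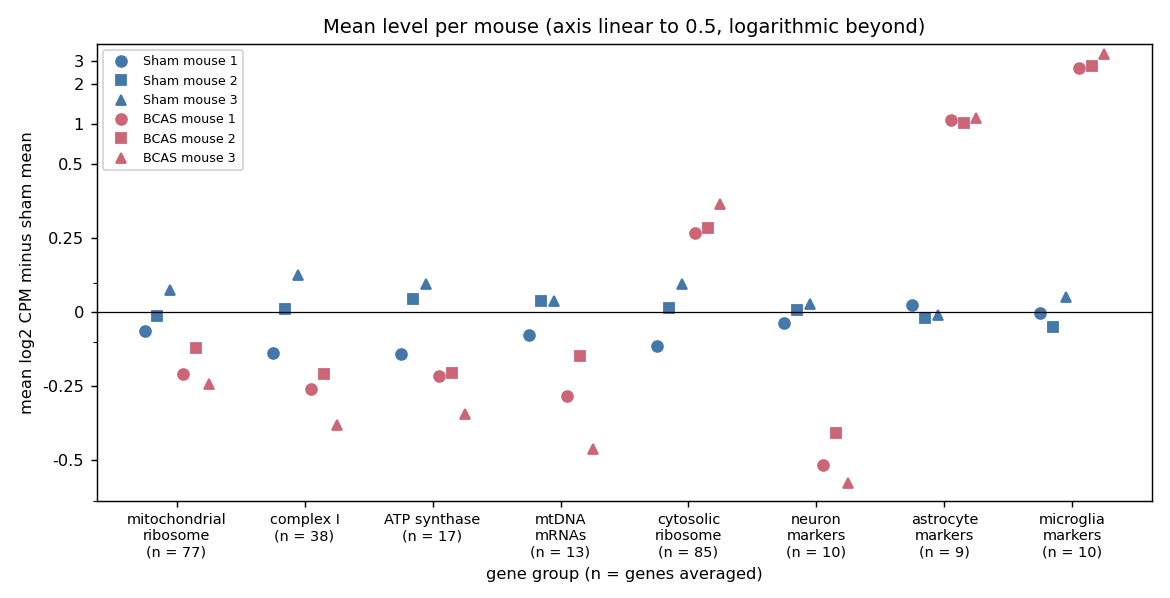
Mean log2 CPM of gene groups in each mouse, minus the mean of the sham mice, on an axis that is linear to 0.5 and logarithmic beyond (blue sham, red BCAS, symbols for mouse numbers). The mitochondrial ribosome, complex I, ATP synthase, the mitochondrial messenger RNAs and the neuron markers lie below 0 in every BCAS mouse, and the cytosolic ribosome, astrocyte and microglia markers above.

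The genes around the mitochondrial ribosome were read from lists. Of 5 subunits with other symbols, 1 was lower. This was Dap3, a GTP-binding protein of the small subunit, with 64.5, 64.3 and 69.1 CPM in sham mice and 53.5, 57.5 and 46.9 CPM in BCAS mice (log2 fold change -0.33, SE 0.09, adjusted P = 0.0229). Its call was lost without sham mouse 1, 2 or 3 (adjusted P = 0.0604, 0.0595 and 0.0894). All 5 had values below 0, with a median of -0.20. Of the 26 factors that assemble the ribosome and modify its RNA, 0 passed in edgeR and 0 in DESeq2, and 5 had an unadjusted P under 0.05 in edgeR, all lower. Without sham mouse 2, BCAS mouse 1 or BCAS mouse 2, 1 of them was called lower. Their median was -0.07, and it became 0.01 with library totals, so the list has no settled direction.

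Of 13 tested translation factors, 2 were lower and 1 was higher, and the lower ones are described here. Gfm1, the elongation factor that moves the ribosome along the messenger, had 55.5, 51.8 and 54.3 CPM in sham mice and 42.9, 44.4 and 40.7 CPM in BCAS mice. Its log2 fold change of -0.34 (SE 0.07, adjusted P = 0.00931) passed in all 17 other settings. Mtif3, an initiation factor, had a log2 fold change of -0.35 (adjusted P = 0.0484) that passed in 5 of 17 other settings and in none that left out a mouse (0.0753 to 0.138). Tufm, the factor that brings transfer RNAs, had a log2 fold change of -0.15 (adjusted P = 0.229). The median of the list was -0.15, and it was -0.04 without sham mouse 3, -0.08 without BCAS mouse 3 and -0.07 with library totals.

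Among 17 mitochondrial tRNA synthetases, 1 was lower and 1 was higher. The higher one, Wars2, which charges the tryptophan tRNA, had 7.46, 5.98 and 5.24 CPM in sham mice and 9.23, 7.72 and 10.5 CPM in BCAS mice (log2 fold change 0.55, adjusted P = 0.0460). The call of Wars2 was lost without sham mouse 2 (0.125), sham mouse 3 (0.152), BCAS mouse 1 (0.0968) or BCAS mouse 3 (0.142). It was also lost with RLE normalization and with the length offset, and it stood in 9 of 17 other settings. The median of the list was -0.05, and it was above 0 with library totals (0.03) and when mouse 3 of either group was left out (0.02 for sham, 0.05 for BCAS).

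The RNAs that the mitochondrial ribosome is built on and reads mostly had fitted levels below those of sham mice as well. The ribosomal RNA of the small subunit, mt-Rnr1, had 3347, 3276 and 3444 CPM in sham mice and 2644, 3232 and 2247 CPM in BCAS mice. That of the large subunit, mt-Rnr2, had 4877, 4757 and 4960 CPM in sham mice and 4009, 4454 and 3409 CPM in BCAS mice. Every BCAS mouse was below every sham mouse in both, but the spread in BCAS mice was wide. The log2 fold changes of -0.31 for mt-Rnr1 (adjusted P = 0.179) and -0.30 for mt-Rnr2 (adjusted P = 0.182) did not pass in edgeR. They passed in DESeq2 (adjusted P = 0.0375 and 0.0162), and without BCAS mouse 2 mt-Rnr1 passed in edgeR as well (log2 fold change -0.47, adjusted P = 0.0242). Without BCAS mouse 3 the values were -0.20 for mt-Rnr1 and -0.21 for mt-Rnr2. Of the 13 mitochondrial messenger RNAs, 12 had values below 0 and 1 passed. This was mt-Nd4l, which encodes a subunit of complex I, with a log2 fold change of -0.54 (adjusted P = 0.0234) that was lost without any 1 mouse (0.0528 to 0.0896), except without BCAS mouse 2. DESeq2 called 9 of the 13 lower, and the median was -0.25.

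Among 17 tested genes for the synthesis and processing of mitochondrial RNA, 1 was lower. Grsf1, which binds mitochondrial RNA, had 106, 114 and 115 CPM in sham mice and 99.3, 96.2 and 91.2 CPM in BCAS mice (log2 fold change -0.23, adjusted P = 0.0382). Its call was lost without any 1 mouse (0.0548 to 0.137), except without BCAS mouse 2. The mitochondrial RNA polymerase gene Polrmt had a log2 fold change of 0.19 (adjusted P = 0.238), and Tfam, which packs and transcribes the mitochondrial genome, had -0.12 (adjusted P = 0.293). Both had overlapping groups.

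Calls among regulators of mitochondrial gene expression were upward. Of 10 genes, 4 were higher and 0 lower in edgeR, and 2 lower at an unadjusted P under 0.05. DESeq2 also called 4 higher and 0 lower. Myc had 4.89, 4.84 and 5.13 CPM in sham mice and 8.73, 7.32 and 9.45 CPM in BCAS mice (log2 fold change 0.78, SE 0.15, adjusted P = 0.00543). Sp1 had 33.7, 32.5 and 27.6 CPM in sham mice and 47.5, 41.5 and 55.1 CPM in BCAS mice (log2 fold change 0.62, SE 0.12, adjusted P = 0.00587). Both calls stood in all 17 other settings. Pprc1, a coactivator, had a log2 fold change of 0.38 (adjusted P = 0.0340) and Gabpa, the DNA-binding subunit of GABP, one of 0.36 (adjusted P = 0.0366). The call of Pprc1 was lost without any 1 mouse (0.0607 to 0.118), except without BCAS mouse 1. That of Gabpa was lost without sham mouse 2 (0.0824), sham mouse 3 (0.117), BCAS mouse 1 (0.0701) or BCAS mouse 3 (0.112). Ppargc1a, the coactivator PGC-1 alpha, had 48.8, 52.7 and 49.1 CPM in sham mice and 43.1, 42.8 and 44.8 CPM in BCAS mice. Its groups did not overlap, but the log2 fold change of -0.21 did not pass (adjusted P = 0.0609). It passed with RLE normalization (adjusted P = 0.0485) and with the length offset (0.0310), where 1 and 2 of the 10 genes were called lower.

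The cytosolic ribosome moved the other way. Of 85 tested cytosolic ribosomal protein genes, 50 were higher after BCAS (58.8%) and 0 lower, with a median log2 fold change of 0.31. Of all tested genes 3356 of 18617 were higher. The calls numbered 24 without sham mouse 1 and 31 without sham mouse 2. In these settings 2453 of 19051 and 2609 of 19109 tested genes were higher. Their mean log2 CPM was 6.29, 6.42 and 6.50 in sham mice and 6.67, 6.69 and 6.77 in BCAS mice. In complexes I and III and in ATP synthase every call was downward, whereas complex IV had calls in both directions. Of 38 complex I genes 18 were lower (47.4%) and 0 higher, with a median of -0.28. Of 17 ATP synthase genes 6 were lower (35.3%) and 0 higher, with the same median of -0.28. Of 9 complex III genes 4 were lower (44.4%) and 0 higher, with a median of -0.21. Of 18 complex IV genes 4 were lower (22.2%) and 2 higher (11.1%), with a median of -0.21. Among all tested genes 13.2% were lower and 18% higher. The 2 higher genes of complex IV were Cox6a2, the isoform known from heart and skeletal muscle (log2 fold change 0.94, adjusted P = 0.0110), and Cox6b2, the isoform known from testis (log2 fold change 1.06, adjusted P = 0.0226), named after their values were seen. Both were low, with mean levels of 3.27 CPM for Cox6a2 and 2.30 CPM for Cox6b2 in sham mice. Complex IV had only 1 higher call without sham mouse 1, sham mouse 3, BCAS mouse 1 or BCAS mouse 3. Complexes III and IV had 0 lower calls without sham mouse 2 or 3. Without BCAS mouse 3 complex III had 2 and complex IV had 1, and without BCAS mouse 2 complex IV had 7. With library totals the lower calls were 12 in complex I, 2 in complex III, 1 in complex IV and 4 in ATP synthase. For complex I the calls fell to 6 when sham mouse 2 was left out, 4 for sham mouse 3 and 11 for BCAS mouse 1 or 3. For ATP synthase they fell to 1 without sham mouse 2 or 3 and 2 without BCAS mouse 3. The share of all tested genes that were lower fell as well. It was 9.61% with library totals, 7.39% without sham mouse 2 and 6.58% without sham mouse 3. Without BCAS mouse 1 or 3 it was 10% and 9.26%. The medians of these 5 families and of the mitochondrial ribosome kept their signs with TMM, RLE, library totals and the length offset and without each mouse. The families share the 6 libraries, and the differences between their medians were not tested.

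**Figure D5:**
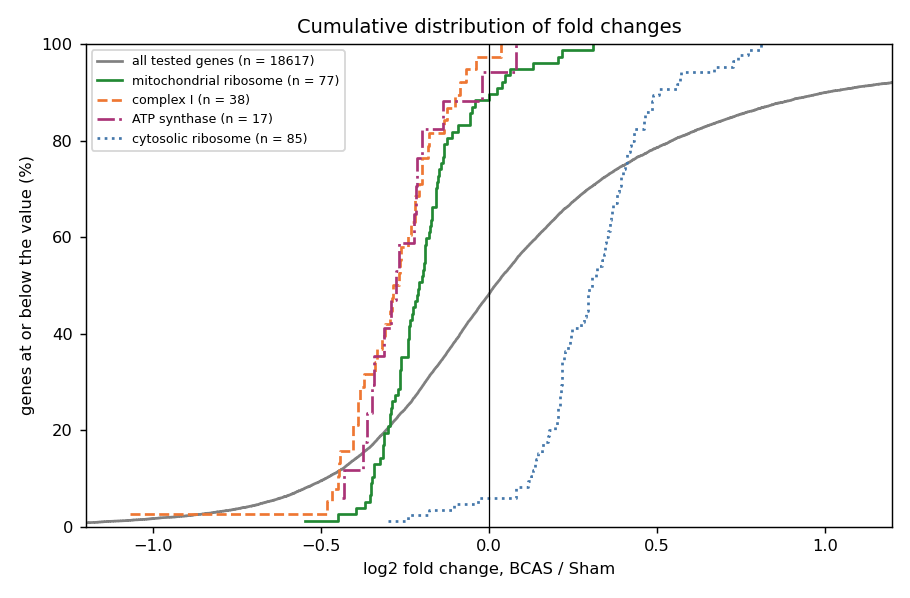
Cumulative share of genes, in percent, at or below a given log2 fold change (BCAS over sham) for all 18617 tested genes, 77 mitochondrial ribosomal protein genes, 38 complex I genes, 17 ATP synthase genes and 85 cytosolic ribosomal protein genes. The curve of the mitochondrial ribosome reaches 0 with 89.6% of its genes below, close to those of complex I and ATP synthase, while the cytosolic ribosome has 80 of 85 genes above 0.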

How the data were processed

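Total RNA from the right hippocampus of 6 mice was made into 1 library each. The authors trimmed the reads with Trim Galore, aligned them to mm10 with HISAT2, handled alignments with SAMtools 1.9 and counted reads per gene with featureCounts. They deposited raw counts, without normalization or filtering. The methods and labels name featureCounts 1.6.3 and the methods RefSeq genes, whereas the file headers name version 2.0.3 and GENCODE M20. Per the file headers both mates of a pair were counted, strand was ignored, and reads that align to several places or overlap several genes were dropped, which lowers genes with copies or shared exons. Inside the BCAS tables the columns are numbered 2 to 4. Here mice carry the numbers of the labels. Symbols were taken from GENCODE M21, and 54723 of 54752 identifiers matched.

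Genes passing filterByExpr were scaled by TMM, and the groups were tested with the quasi-likelihood method of edgeR (4.0.16, in R 4.3.3), with group as the only term and adjusted P values over 18617 genes. The study compared the groups with DESeq2, which was run as an alternative (1.42.0), as was limma-voom (limma 3.58.1). The smallest P of an exact permutation test with 3 mice per group is 0.1. A prior count of 2 entered log2 CPM. FPKM was computed from the counts and the summed exon length in the tables. The steps were tested on simulated counts of 18617 genes, all with the common biological coefficient of variation. Of the genes changed by an absolute log2 fold change of 1, 87% were called in the right direction. At 0.5 it was 11%, and 6 unchanged genes were called. A change of the size seen in most of the family can thus go uncalled. No 2 libraries agreed within sampling noise.

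The genes and lists were chosen with earlier results of these data known. Named in the text are all members that passed, the 3 highest and 3 lowest in FPKM, the 3 with the largest absolute fold changes, the S18 paralogs, Mrps36 and members not tested. From the lists of genes around the ribosome all genes that passed were named if 4 or fewer, otherwise the 2 with the smallest P in each direction, with Dap3, Polrmt, Tfam, Tufm, Ppargc1a, mt-Rnr1 and mt-Rnr2. Of the lists, Mtrfr was not matched and Slirp was not tested. Of the genes this rule names in these lists, 2 are not reported here. The rule was not applied to the cytosolic ribosome and the respiratory complexes, which are given by counts and medians, apart from Cox6a2 and Cox6b2. A planned split by bacterial homology was left out, since it set Mrps18a and Mrps18b apart from the homologs. Alternatives were RLE, library totals, no filter, a mean of at least 10 counts, thinned counts, halved counts, a length offset, the replicate number as a block with and without that offset, and leaving out each mouse. The qRT-PCR, blood flow, histology and single-cell data were not analysed here.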

Additional observations from a re-analysis of the deposited data

How the results depend on the processing

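All 12 genes called lower kept their direction in all 17 other settings, and 0 genes of the family were called higher in any. Mrps33, Mrpl3, Mrps26, Mrps9 and Mrpl57 passed in every setting without the fold change threshold. Against 12 calls, library totals gave 6 and a length offset gave 19. With the length offset these were 24.7% of the family, against 15.7% of all tested genes. The threshold of an absolute log2 fold change above 1 gave 0. Leaving out 1 mouse gave 5 to 23 calls, of which 5 to 11 were among the 12. The other settings without a replicate block gave 10 to 17. The 17 calls came with RLE normalization, or 22.1% against 14.3% of all tested genes. DESeq2 gave 15, or 19.5% against 8.8% of the 31986 genes it tested. The median log2 fold change was -0.13 with library totals against -0.21, and -0.24 to -0.17 without 1 mouse. The sign turned in at least 1 setting for 8 of the 77 genes, all within 0.057 of 0 at first and called in none, and at most 5 turned in 1 setting. Of the genes described, these were Mrpl34, which was 0.028 with library totals and -0.11 to 0.029 over the 6 mice left out, and Mrpl9, which was 0.074 with library totals, 9.1e-04 with thinned counts, 0.0028 with halved counts and -0.066 to 0.053 over the mice left out. The cause of these shifts was not tested. Every tested gene of the family had at least 132 counts in each library, so none was near the limit of detection, but genes with shared exons lack the reads that were not counted.

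Equal replicate numbers in the 2 groups mark no shared origin, and pairing was not seen in the data: residuals of same-numbered sham and BCAS libraries correlated at 0.036, -0.314 and -0.158 for numbers 1, 2 and 3. With the replicate number as a block, 5 genes of the family were lower, all among the 12. They were 6.49% of the family, against 9.4% of all tested genes. With the length offset added 8 were lower, or 10.4% against 11.1%. In both settings the share of the family lay below that of all tested genes.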
